A study of Mus musculus with 5 samples.

Results

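The 4 large antigen receptor loci of the mouse were examined in embryonic stem cells: the immunoglobulin heavy chain locus Igh (mm9 chr12:114400001-117250000), the immunoglobulin kappa light chain locus Igk (chr6:67500001-70700000), the combined T cell receptor alpha and delta locus Tcra/d (chr14:52900001-54850000) and the T cell receptor beta locus Tcrb (chr6:40840001-41510000). A 1 kb bin counted as a member when it held at least 1 input read. This gave 7353 of the 8670 bins of the loci, of 2392560 such bins on chromosomes 1 to 19 and X. Igh held 2526 members, Igk 2883, Tcra/d 1343 and Tcrb 601. The 1 Mb flanks on both sides of each locus, with 7615 such bins, served for comparison.

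The study profiled 5-methylcytosine (5mC) and 5-hydroxymethylcytosine (5hmC) with 5 libraries of 35 bp reads, 1 per group. Antibody pulldowns of denatured, adaptor-ligated DNA used 2 µg of anti-5mC (MeDIP) or 2 µg of anti-5hmC (hMeDIP). In MethylCap, 2 µg of a tagged methyl-CpG binding domain (MBD) protein captured 1 µg of sonicated DNA, and bound DNA was eluted at 600 mM or 800 mM NaCl. The pulldowns all used E14 gene-trap clones at passages 11 to 14, grown in serum with LIF and without feeders. For input, chromatin DNA was taken from TNG-A, an E14 line with a GFP reporter at Nanog, so the input is of another line and another preparation than the pulldowns. Depth was 10462783 reads for the 600 mM eluate, 7507520 for the 800 mM eluate, 10442811 for MeDIP, 18519740 for hMeDIP and 18676265 for input. With no replicates, no difference had a replicate check and no test between libraries was made. The 95% intervals are exact intervals of read ratios and cover counting error only.

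Antigen receptor genes are assembled in developing B and T cells, where the RAG recombinase joins 1 of many variable (V) segments to diversity (D) and joining (J) segments beside a constant (C) gene. Each locus is therefore a long array of V segments with a short D-J-C end that also carries enhancers. Embryonic stem cells keep the loci in germline order. DNA methylation in mammals sits mainly at CpG dinucleotides, and 5hmC is made from 5mC by TET enzymes. The MBD binds methylated CpGs in double-stranded DNA and holds CpG-dense fragments to higher salt, whereas the antibodies bind the modified base in single strands.

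RefSeq on GRCm38.p6 lists 120 V segments and 63 V pseudogenes, 10 D segments, 4 J segments and 8 C regions at Igh. Igk has 102 V segments, 60 V pseudogenes, 5 J segments and 1 C region. Tcra/d has 119 V, 53 J and 2 D segments with 2 C regions, and Tcrb 22 V, 13 J and 2 D segments with 2 C regions. None of these segments has an entry in the RefSeq promoter table, so the sequence around the loci is shown by the other genes that lie among or beside the segments. In the 250 bases before their start, the 27 genes inside the loci held 0 to 7 CG dinucleotides, with a median of 0, and 14 of them held none. The table's 27025 promoters had a median of 6 CG, and 8.26% held none. The 16 protein-coding genes nearest to the loci, 2 on each side, held 0 to 27 CG with a median of 12.5. Of these 16, 5 held 2 CG or fewer, against 22 of the 27 inside. The sets are not alike, since the inside set also holds long non-coding RNA genes. The 4 genes shown next were picked as CG-poor inside and CG-rich beside. The sequences of 4 genes show the contrast, with each CG in capitals: Prss2, a trypsinogen gene beside the Tcrb D-J-C end (GRCm38 chr6:41521526-41521775, plus strand, 1 CG), Adam6b, a sperm protein gene between the Igh V and D segments (chr12:113489315-113489564, plus strand, 0 CG), Dad1, a ubiquitously expressed gene beside the Tcra/d constant gene (chr14:54253930-54254179, minus strand, 15 CG), and Tmem121, a gene beside the Igh constant genes (chr12:113185653-113185902, plus strand, 20 CG).
Prss2: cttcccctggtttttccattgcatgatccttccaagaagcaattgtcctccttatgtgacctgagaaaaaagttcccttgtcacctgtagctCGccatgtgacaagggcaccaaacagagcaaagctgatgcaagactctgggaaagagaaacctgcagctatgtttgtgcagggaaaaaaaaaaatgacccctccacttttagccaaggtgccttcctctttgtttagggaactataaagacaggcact
Adam6b: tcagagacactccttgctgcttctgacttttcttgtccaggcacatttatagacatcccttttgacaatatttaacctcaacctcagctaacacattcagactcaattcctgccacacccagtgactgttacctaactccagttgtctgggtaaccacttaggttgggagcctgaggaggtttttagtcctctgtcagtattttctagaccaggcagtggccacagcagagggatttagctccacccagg
Dad1: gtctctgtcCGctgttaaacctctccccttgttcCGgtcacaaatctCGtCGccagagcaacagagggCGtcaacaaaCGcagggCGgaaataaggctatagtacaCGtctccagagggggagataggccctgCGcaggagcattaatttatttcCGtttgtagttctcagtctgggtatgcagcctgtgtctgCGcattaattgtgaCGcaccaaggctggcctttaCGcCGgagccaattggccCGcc
Tmem121: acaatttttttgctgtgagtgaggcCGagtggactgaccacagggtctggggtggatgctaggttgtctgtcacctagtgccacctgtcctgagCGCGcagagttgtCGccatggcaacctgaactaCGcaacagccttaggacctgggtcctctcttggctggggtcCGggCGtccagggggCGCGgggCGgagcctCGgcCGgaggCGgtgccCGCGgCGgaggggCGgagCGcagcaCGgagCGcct
These positions are on GRCm38 and were not converted to the mm9 bins used below, whose own CpG content is not analysed here.

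The long arrays of V segments were depleted in every pulldown, whereas the D-J-C ends, pooled over the loci, lay above input. Over the 6310 member bins of the 4 variable stretches, the 600 mM library had 6988 reads against 35602 of input, a fold of 0.350, and the 800 mM library 4731 reads, or 0.331. MeDIP lay at 0.536 (10663 reads) and hMeDIP at 0.590 (20844 reads). Over the 581 bins of the D-J-C ends the same values were 1.48, 1.49, 1.53 and 1.5, and over the flanks 1.24, 1.27, 1.17 and 1.23. Here fold over input is the library's RPM (reads scaled to 1000000 per library) over a stretch divided by that of input, with no pseudocount. The genome's median bin itself lay below input, and with that median set to 1 the single variable stretches still stood between 0.323 and 0.888. The Tcrb D-J-C end at 800 mM and in MeDIP, and the Igk J-C end at 800 mM and in hMeDIP, then moved from below to above 1.

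The variable stretches therefore stood at 0.283 of their flanks at 600 mM (95% interval 0.275 to 0.292) and 0.261 at 800 mM (0.252 to 0.270). In MeDIP the ratio was 0.456 (0.445 to 0.468) and in hMeDIP 0.481 (0.471 to 0.491). Against the variable stretches, the D-J-C ends were higher by 4.24 times at 600 mM (4.00 to 4.48), by 4.52 times at 800 mM (4.24 to 4.81), by 2.86 times in MeDIP (2.71 to 3.02) and by 2.54 times in hMeDIP (2.42 to 2.66). The gap between variable stretches and surroundings was thus wider in both MBD eluates than with either antibody. Over the genome's autosomal 100 kb windows the eluates also spread more. Their 10th to 90th percentiles were 0.204 to 2.28 (600 mM) and 0.196 to 2.32 (800 mM) of input. MeDIP had 0.404 to 1.95 and hMeDIP 0.449 to 1.85, so the wider gap is not shown to be particular to these loci. The Igh locus weighed on the pooled values. Without it the variable stretches stood at 0.438 and 0.395 of the flanks in the 600 mM and 800 mM eluates, and at 0.590 and 0.562 in MeDIP and hMeDIP.

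**Figure D1:**
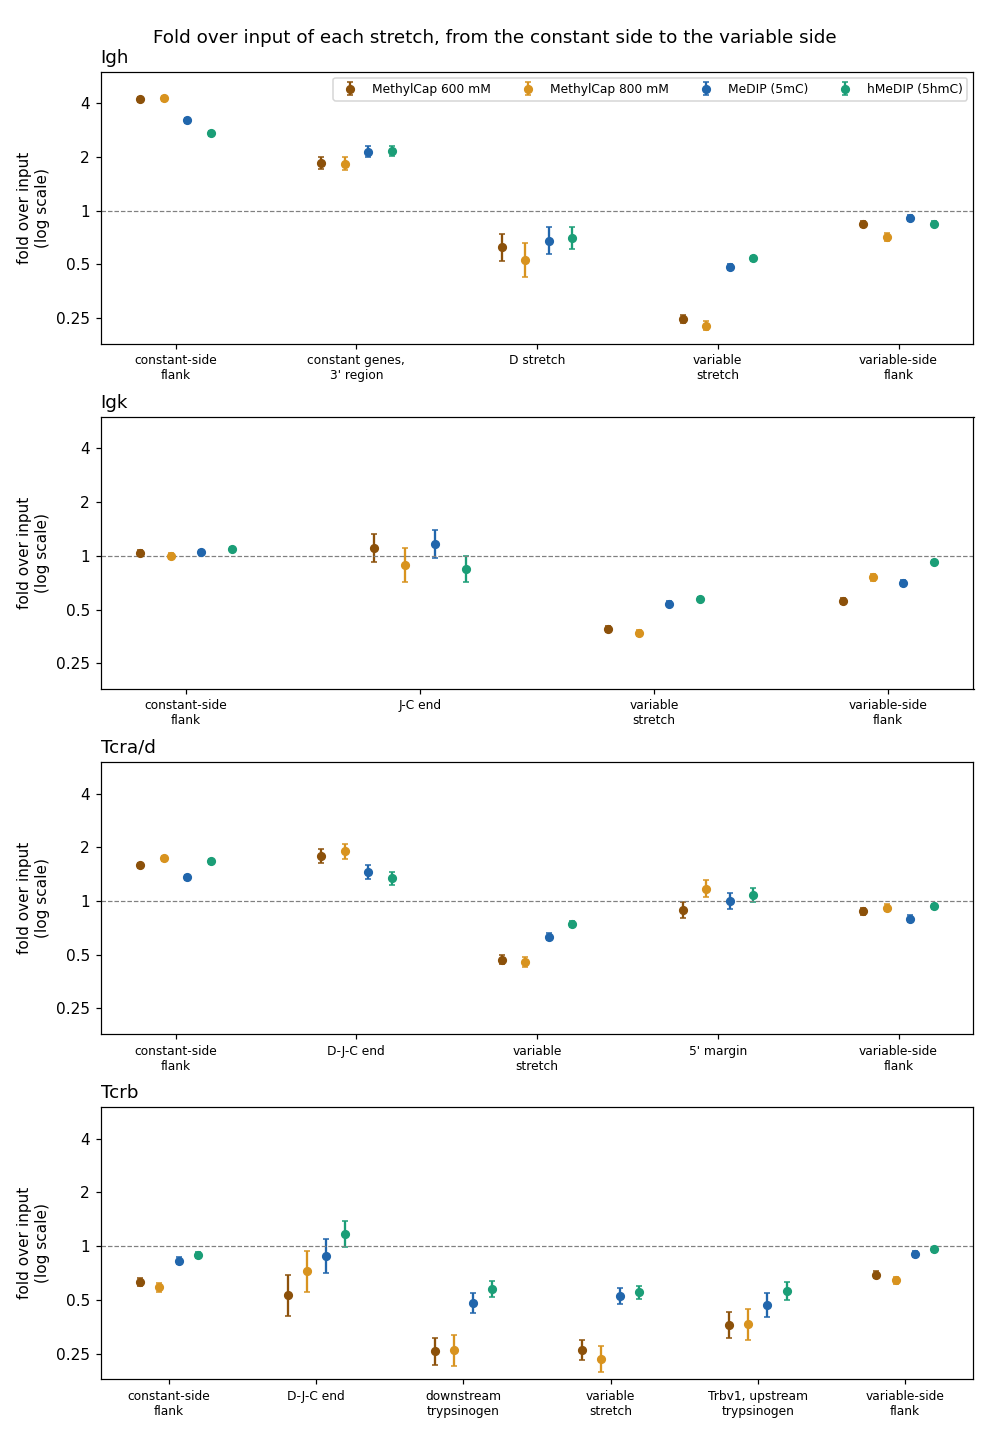
Fold over input (log axis) of each stretch of the 4 loci and of both 1 Mb flanks, drawn from the constant side on the left to the variable side on the right. Points are single libraries and bars exact 95% intervals of the read ratio (counting error only). Each variable stretch lies below input in all 4 libraries, between 0.227 and 0.745, with both eluates below both antibody libraries.

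At Igh the variable stretch (chr12:114800001-117250000, 2163 members) had the lowest value of the 4 variable stretches in each library: 0.248 of input at 600 mM (0.236 to 0.262), 0.227 at 800 mM (0.213 to 0.242), 0.484 in MeDIP (0.465 to 0.503) and 0.541 in hMeDIP (0.524 to 0.558). Each of these intervals overlapped that of the Tcrb variable stretch, so the 2 were not separated. These values keep all reads. A flag of unknown meaning, a 1 in column 4, marked 21.7% of input reads here, against 5.91% at Igk and 5.74% at Tcrb. No antibody read carried it. Without flagged reads the stretch folds became 0.748 to 1.15 times their printed values. The rank of Igh in MeDIP and hMeDIP thus holds only with these reads kept. With 5 or more input reads per bin the Igk variable stretch was lower than Igh in MeDIP (0.380 against 0.434) and hMeDIP (0.456 against 0.498). This setting selects bins by the input count, which is the denominator of the fold. All 80 stretch folds fell under it, to between 0.376 and 0.963 of the printed values. The neighbouring D stretch (chr12:114670001-114800000) was intermediate at 0.625, 0.531, 0.680 and 0.704 in the same order, but fell to 0.311, 0.199, 0.318 and 0.411 when bins with under 5 input reads were left out. The constant genes and 3' region (chr12:114400001-114670000), which hold the exons of the heavy chain classes and the 3' enhancers, reached 1.85, 1.83, 2.15 and 2.16. Beyond them the constant-side flank rose further to 4.20 and 4.27 in the eluates, 3.22 in MeDIP and 2.71 in hMeDIP, whereas the variable-side flank lay at 0.842, 0.710, 0.914 and 0.848. The variable stretch was thus at 0.0591 of the constant-side flank and 0.295 of the variable-side flank in the 600 mM eluate. For hMeDIP these ratios were 0.199 and 0.638.

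At Igk the variable stretch (chr6:67500001-70660000, 2843 members) lay at 0.390 (0.376 to 0.404) and 0.369 (0.354 to 0.385) of input in the 600 mM and 800 mM eluates, at 0.539 (0.522 to 0.557) in MeDIP and at 0.575 (0.560 to 0.590) in hMeDIP. Bins with 5 or more input reads gave 0.216, 0.204, 0.380 and 0.456. The J-C end (chr6:70660001-70700000, 40 members), with the J segments and the single constant gene Igkc, lay at 1.11 (0.924 to 1.33), 0.891 (0.711 to 1.11), 1.17 (0.976 to 1.40) and 0.849 (0.717 to 1.00). All 4 of these intervals included 1, and all 4 lay above those of the variable stretch. The hMeDIP level of the J-C end was 0.725 of its MeDIP level (0.601 to 0.875).

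At Tcra/d the variable stretch (chr14:53040001-54700000) was the least depleted, at 0.469 (0.443 to 0.496) and 0.456 (0.426 to 0.486) in the eluates, 0.632 (0.601 to 0.665) in MeDIP and 0.745 (0.716 to 0.775) in hMeDIP. Only 1065 of its 1660 bins held an input read. Of the others, 506 held no read in any library, in runs of up to 51 kb. The D-J-C end (chr14:54700001-54850000), which holds the long J alpha array and the delta and alpha constant genes, reached 1.79 (1.64 to 1.95), 1.90 (1.73 to 2.08), 1.45 (1.32 to 1.59) and 1.34 (1.24 to 1.45). Here both eluates stood above both antibody libraries, the reverse of the order in the variable stretch. A margin of 140 kb before the first V segments (chr14:52900001-53040000) lay near input at 0.888, 1.17, 0.998 and 1.08.

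At Tcrb, the smallest locus, the variable stretch (chr6:40990001-41240000, 239 members) lay at 0.262 (0.229 to 0.299), 0.234 (0.198 to 0.275), 0.527 (0.476 to 0.582) and 0.551 (0.508 to 0.596). Tcrb is interrupted by genes of trypsinogens, the precursors of a pancreatic digestive protease, which do not rearrange. The downstream trypsinogen stretch (chr6:41240001-41475000) had 0.259 (0.217 to 0.306), 0.260 (0.212 to 0.317), 0.480 (0.420 to 0.547) and 0.573 (0.518 to 0.634), all 4 intervals overlapping those of the variable stretch; with 5 or more input reads per bin the eluates were at 0.154 and 0.148. The stretch with Trbv1 and the upstream trypsinogen genes (chr6:40840001-40990000) lay at 0.362, 0.366, 0.470 and 0.559. Low values at Tcrb were therefore not limited to the V segments. The D-J-C end (chr6:41475001-41510000, 35 members) was the lowest D-J-C end in both eluates, at 0.533 (0.408 to 0.690) and 0.723 (0.552 to 0.939), with 0.880 (0.706 to 1.09) in MeDIP and 1.16 (0.983 to 1.38) in hMeDIP. Its eluate values became 0.303 and 0.433 with 5 or more input reads per bin. Its hMeDIP level was 1.32 times its MeDIP level (1.07 to 1.64), opposite in direction to the Igk J-C end.

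Both flanks stood above the variable stretch at all 4 loci in all 4 libraries. The ratio of the variable stretch to a single flank ran from 0.0532 (Igh, constant side, 800 mM eluate) to 0.799 (Tcra/d, variable side, hMeDIP). The constant-side flank was the higher of the 2 in all 4 libraries at Igh, Igk and Tcra/d. At Tcrb the variable-side flank was the higher in all 4, with 0.693 against 0.628 in the 600 mM eluate and 0.962 against 0.896 in hMeDIP.

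**Figure D2:**
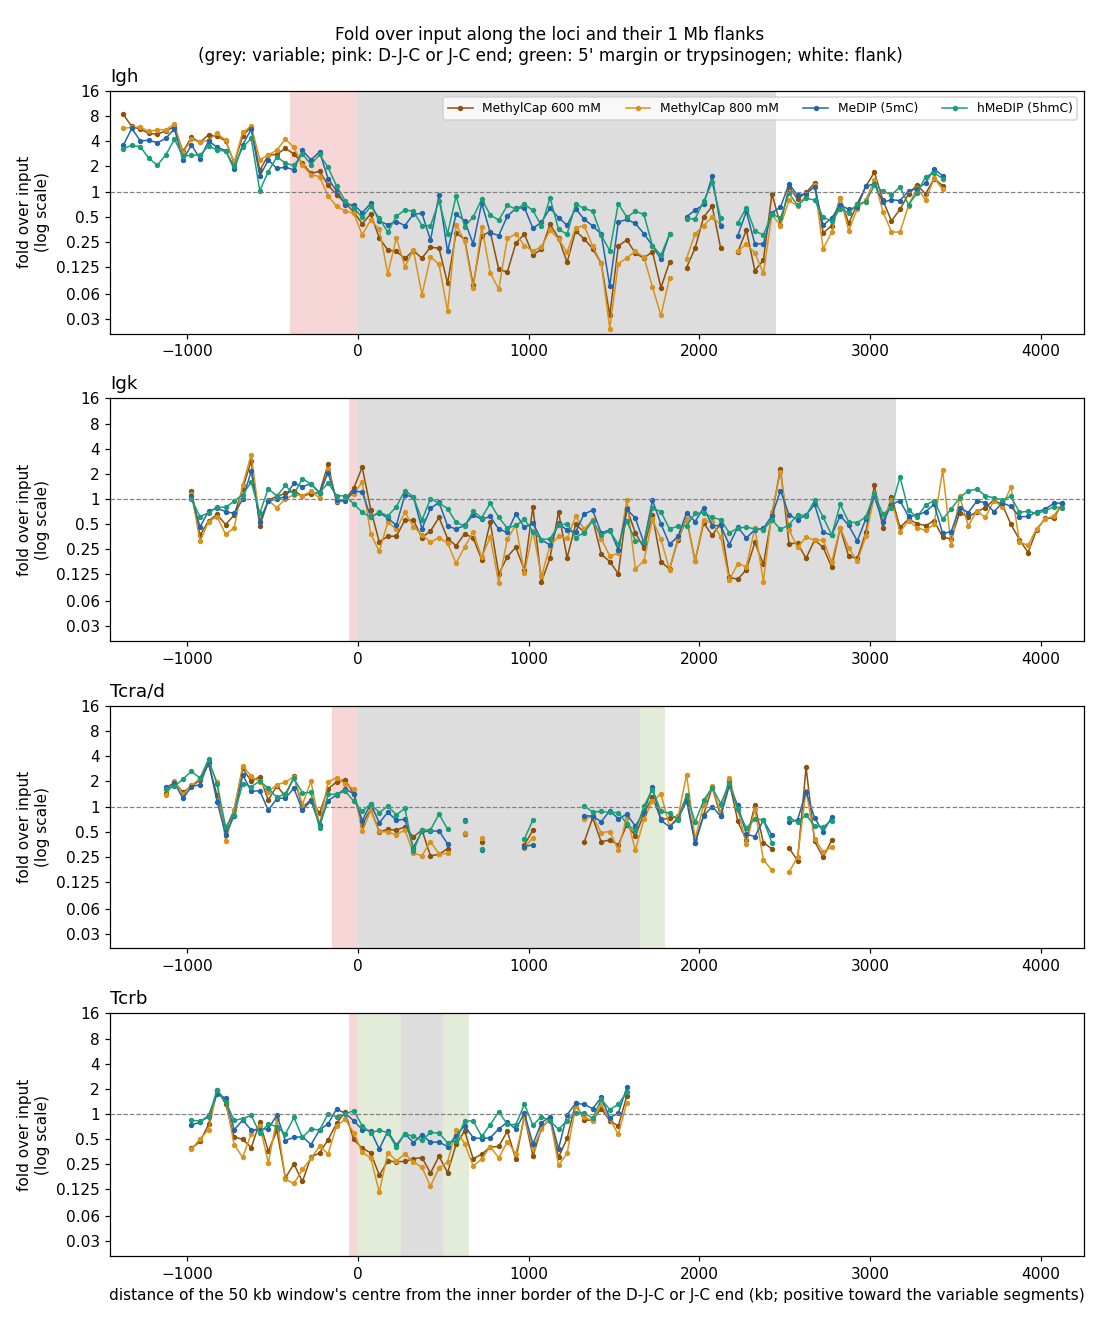
Fold over input (log axis) in 50 kb windows along each locus and its 1 Mb flanks, against the distance in kb from the inner border of the D-J-C or J-C end, positive toward the V segments, with the stretch at a window's centre shaded. Windows with under 100 input reads (14 of 331) are left out, which leaves gaps, chiefly in the Tcra/d array. The Igh profile steps down from the constant-side flank through the D-J-C end into the variable stretch and returns toward input in the far flank.

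Depletion along the V arrays had no single direction over the loci and libraries. Each variable stretch was split into 3 parts of equal length, named near, middle and far by distance from the D-J-C end. At Igh the 600 mM values were 0.246 near, 0.195 in the middle and 0.313 far. At Igk they were 0.408, 0.347 and 0.410, at Tcra/d 0.512, 0.386 and 0.418, and at Tcrb 0.250, 0.279 and 0.256. In the 800 mM eluate the values rose with distance at Igh (0.213, 0.215 and 0.260) and at Igk (0.343, 0.363 and 0.396). They fell at Tcrb (0.275, 0.228 and 0.203), and Tcra/d had 0.461, 0.420 and 0.460. The 800 mM intervals of the near and far parts overlapped at all 4 loci. MeDIP was lowest in the middle part at each locus, at 0.438 for Igh, 0.491 for Igk, 0.380 for Tcra/d and 0.506 for Tcrb. Its interval was apart from those of both other parts only at Tcra/d. It overlapped that of the near part at Igh, that of the far part at Igk and both at Tcrb. For hMeDIP the middle part was lowest at Igk (0.654, 0.482 and 0.586), Tcra/d (0.791, 0.469 and 0.769) and Tcrb (0.536, 0.515 and 0.599), whereas Igh had 0.521, 0.539 and 0.567. The hMeDIP intervals of the parts overlapped at Tcrb. The middle part at Tcra/d had only 233 member bins of 554 and 716 input reads, against 3395 in the near part.

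In 100 kb windows with 200 or more input reads, 66 of the 69 variable windows lay below the median of 23524 autosomal windows in the 600 mM eluate (median 0.762 of input), 64 in the 800 mM eluate, 65 in MeDIP and 61 in hMeDIP. Below the genome's 10th percentile (0.204 of input in the 600 mM eluate) were 16, 13, 15 and 14 of the 69. The loci thus sat low in the genome's range without being at its extreme throughout. At Igh 11 of 24 windows fell below that percentile in the 600 mM eluate, at Igk 5 of 32, and at Tcra/d 0 of 11.

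The lowest window of the 4 loci was chr12:116500001-116600000 in the Igh array, with 5 reads in the 800 mM eluate against 254 input reads, a fold of 0.0490 (0.0158 to 0.116). MeDIP had 26 reads there (0.183) and hMeDIP 49 (0.195), their lowest Igh windows too. In the 600 mM eluate the lowest Igh window was chr12:116200001-116300000, with 33 reads against 592 (0.0995). The lowest Igk window of both eluates was chr6:68400001-68500000, at 0.116 and 0.150. For Igk, MeDIP was lowest at chr6:69500001-69600000 (0.332) and hMeDIP at chr6:69100001-69200000 (0.329). The lowest Tcra/d windows fell between chr14:54100001 and 54400000, at 0.262 for the 600 mM eluate, 0.266 for the 800 mM eluate, 0.387 for MeDIP and 0.419 for hMeDIP. For Tcrb, chr6:40900001-41000000 was lowest in the 600 mM eluate (0.215), MeDIP (0.338) and hMeDIP (0.443), and chr6:41100001-41200000 in the 800 mM eluate (0.197).

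Windows were classed by their centre, and the highest lay in the D-J-C end at Igh and Tcra/d. The Igk J-C end (40 bins) and the Tcrb D-J-C end (35 bins) are shorter than a window. Neither holds the centre of one, so this result was not possible there. At Igh they were chr12:114400001-114500000 for both eluates (2.53 and 2.78) and chr12:114500001-114600000 for MeDIP (2.70) and hMeDIP (2.45). At Tcra/d chr14:54700001-54800000 was highest in all 4 libraries, from 1.32 in hMeDIP to 1.73 in the 800 mM eluate. At Tcrb chr6:41400001-41500000 was highest in all 4 but reached only 0.478 to 0.876. It lies mostly in the downstream trypsinogen stretch and also holds most of the D-J-C end. Igk was less uniform, with chr6:70600001-70700000 highest in the 600 mM eluate (1.57) and MeDIP (1.15), chr6:68100001-68200000 in the 800 mM eluate (1.20), and chr6:70300001-70400000 in hMeDIP (1.13). The centre of each of these windows lies on the variable side, and the first also holds the whole J-C end. Of the 514 reads at 600 mM in the first, 256 came from the variable-side window chr6:70640001-70650000.

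Low 10 kb windows were more frequent in the variable stretches than in the genome in each library. Of 652 variable 10 kb windows with 20 or more input reads, 460 (70.6%) lay at 0.5-fold of input or less in the 600 mM eluate, where 39.4% of all such windows of the genome did. In the 800 mM eluate it was 468 (71.8%) against 42.3% of the genome. In MeDIP it was 268 (41.1%) against 24.3%, and in hMeDIP 217 (33.3%) against 20.5%. Of 61 windows in the D-J-C ends, 7, 10, 1 and 0 were that low. By locus the 600 mM share was 81.3% of 225 windows at Igh, 72.0% of 25 at Tcrb, 70.0% of 297 at Igk and 48.6% of 105 at Tcra/d. The hMeDIP share at Tcra/d, 21 of 105 windows, was near that of the genome.

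Single bins at 3 times input or more, computed with 0.5 RPM added to both, were few. Among all 7353 members they numbered 59 at 600 mM (0.802%, against 3.3% of the genome's bins), 78 at 800 mM (1.06% against 4.27%), 47 in MeDIP (0.639% against 2.48%) and 34 in hMeDIP (0.462% against 1.93%). The variable stretches held 30, 39, 24 and 14 of them among 6310 bins (0.475%, 0.618%, 0.380% and 0.222%). Single high bins were thus more numerous in the eluates although the summed reads were lower there. The shares of the genome and of the flanks were also higher in the eluates, so this order is not particular to the variable stretches. The D-J-C ends held 26, 31, 17 and 19 among 581 (4.48%, 5.34%, 2.93% and 3.27%). These pooled shares lay below those of the flanks (5.37%, 6.84%, 3.86% and 3.48%), although the summed fold of the D-J-C ends was above that of the flanks. The Igh constant-side flank alone held 244 of the 409 flank bins called at 600 mM and 280 of 521 at 800 mM. At Tcra/d the eluates had the reverse order, with 7.69% and 8.39% in the D-J-C end against 4.74% and 6.98% in the flanks. MeDIP (2.10% against 3.30%) and hMeDIP (1.40% against 4.58%) did not. Members had a median of 5 input reads over most variable stretches against 7 over the genome, which leaves single bins more open to counting error.

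**Figure D3:**
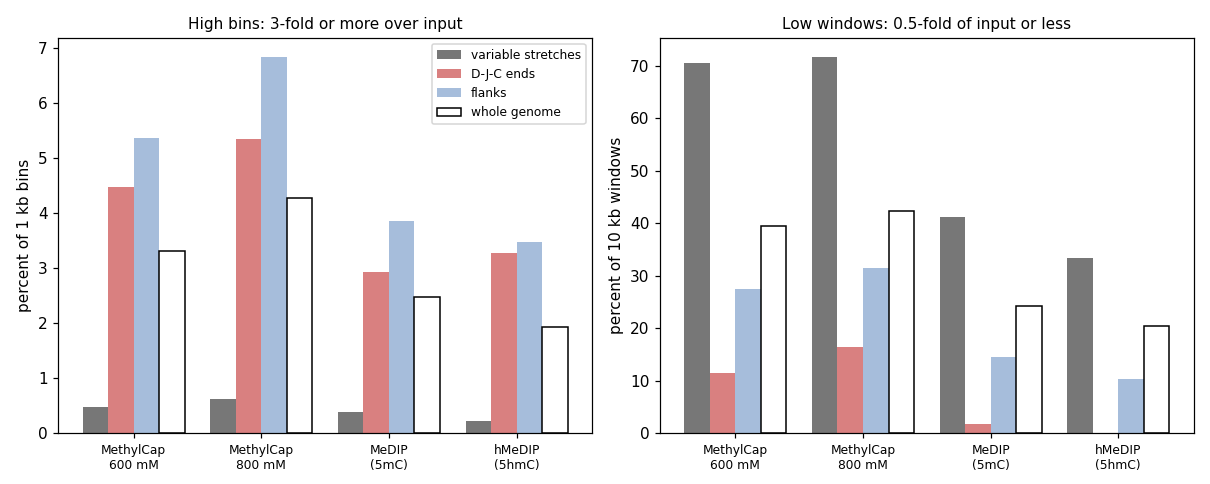
Percent of 1 kb bins reaching 3 times input (left) and percent of 10 kb windows at 0.5-fold of input or less (right) in each library, for the variable stretches, the D-J-C ends, the flanks and the whole genome; bars start at 0 and are single libraries. High bins are scarcest and low windows commonest in the variable stretches, 70.6% of windows in the 600 mM eluate against 39.4% genome-wide.

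Most high bins were called in 1 library. Of the 7353 members, 153 were called in any library, against 166753 of the genome's 2392560 bins. Of the 153, 105 were called in 1 only (68.6%, against 51.7% of the bins so called in the genome). Both eluates called 34 (22.2% against 33.1%), both antibodies 9 (5.88% against 12.3%) and all 4 libraries 1 (0.654% against 4.67%). An eluate without an antibody called 81 bins (52.9% against 49.1%), an antibody without an eluate 50 (32.7% against 24.5%), and 6 were called both by an eluate and by hMeDIP (3.92% against 11.8%). The split between eluates and antibodies was thus near that of the genome for eluates alone, and the shares called in more than 1 library were lower; the part of the lower input depth of the members in this was not tested. The Igk variable stretch held 54 called bins among 2843 members. Of these, 37 were called by eluates alone (68.5%) and none by an eluate together with hMeDIP. The Igh D-J-C end held 40 called bins among 363 members. Of these, 16 came from eluates alone (40%), 17 from antibodies alone (42.5%) and 7 from both kinds (17.5%, against 26.5% in the genome).

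At Igk a sharp MBD signal stood 15 kb from the J-C border on the variable side. The window chr6:70640001-70650000 held 256 reads at 600 mM (14.3 times the 32 input reads after scaling), 106 at 800 mM (8.24 times), 98 from MeDIP (5.48 times) and 29 from hMeDIP (0.914 times). The bin chr6:70645001-70646000 alone held 169, 44, 41 and 7 reads in the same order against 3 input reads, and had the largest excess of MeDIP over hMeDIP among members with 20 or more reads in that pair. Its neighbour chr6:70646001-70647000 had 40, 6, 6 and 3 reads against 5. This place was thus rich in MBD and anti-5mC reads with hMeDIP near input. Which Igk element lies there was not determined, since no mm9 annotation was used.

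**Figure D4:**
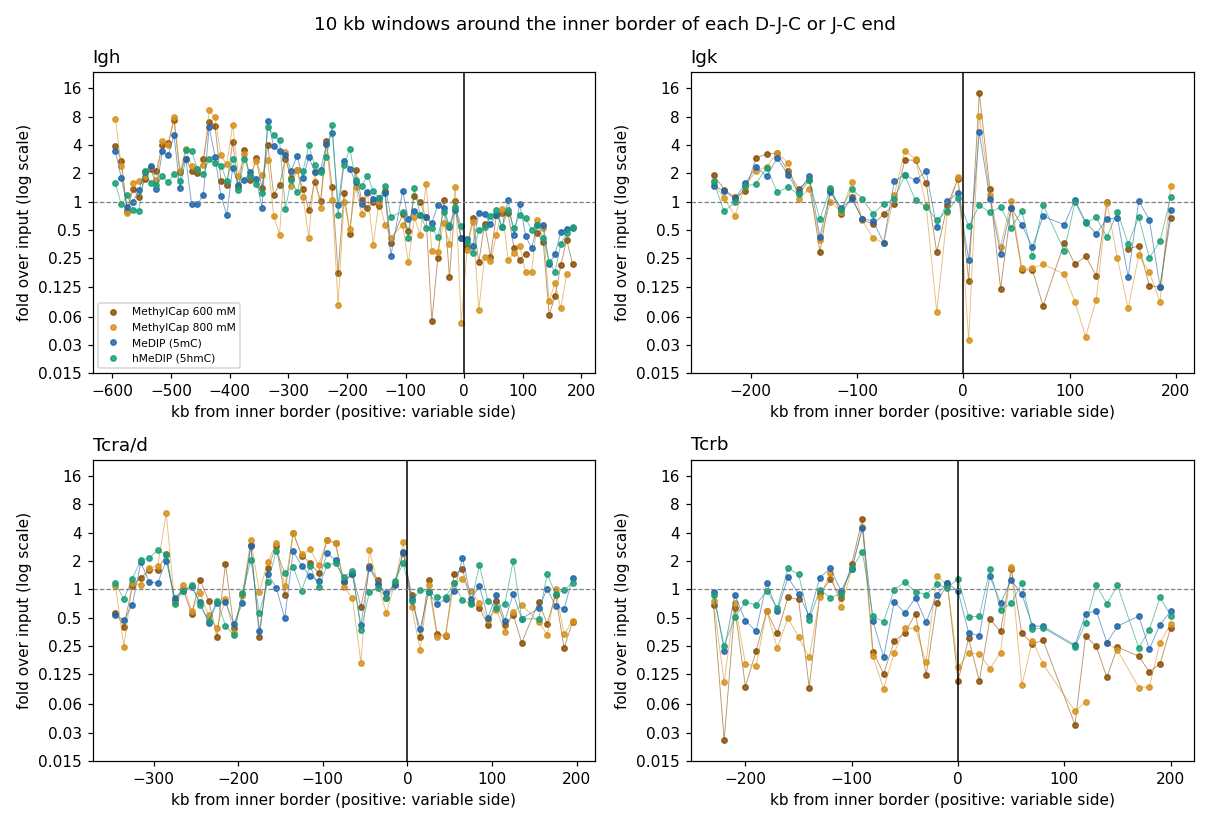
Fold over input (log axis) of 10 kb windows within 200 kb of the D-J-C or J-C ends, against the distance in kb from the inner border (vertical line; positive toward the V segments); windows without a read in a library are not drawn. The Igk window at 15 kb reaches 14.3-fold in the 600 mM eluate with hMeDIP at 0.914, and Igh windows at -335 to -195 kb reach 7.20 in MeDIP and 6.47 in hMeDIP.

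Deeper in the array, chr6:68199001-68200000 was the highest Igk bin in 3 libraries among those with 5 or more input reads, with 105 reads at 600 mM against 5 input reads (13.7 times with 0.5 RPM added), 46 at 800 mM (8.63 times) and 30 from MeDIP (4.39 times). hMeDIP had 17 reads (1.85-fold), 0.420 of the MeDIP level. The bin chr6:69466001-69467000 was high at 600 mM only, with 44 reads against 7 at 800 mM. The bin chr6:69397001-69398000 was higher at 800 mM, with 20 reads against 12. Among bins with 5 or more input reads, the 2 Igk bins highest in hMeDIP went the other way: chr6:67771001-67772000 had 41 hMeDIP and 14 MeDIP reads and none in either eluate against 7 input reads, and chr6:67638001-67639000 had 34, 11, 1 and 2 in the order hMeDIP, MeDIP, 600 mM and 800 mM.

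At the Igh constant genes some windows were high with the antibodies and not with the MBD. Of 27 windows of 10 kb there, 11 were at 2-fold or more with both antibodies (7.41% of the genome's windows with 20 or more input reads were), and 7 of these were under 2-fold in both eluates (0.784% of the genome). In both eluates 7 were at 2-fold or more (13.4% of the genome), 3 of them with hMeDIP below that (6.22% of the genome). These 2-fold counts were made after the values were seen. The window chr12:114570001-114580000 had 88 MeDIP reads (5.43-fold) and 186 hMeDIP reads (6.47-fold) against 29 input reads, while the eluates held 23 reads at 600 mM (1.42 times) and 12 at 800 mM (1.03 times). In chr12:114480001-114490000 MeDIP was at 3.44 and hMeDIP at 4.50 while the eluates lay at 1.51 and 0.447. In chr12:114600001-114610000 the antibodies stood at 2.25 and 3.62 and the eluates at 0.458 and 0.510. Nearby, chr12:114460001-114470000 was high in all 4 libraries, at 4.04, 2.78, 7.20 and 6.24. The Tcra/d D-J-C end had no window at 2-fold or more with both antibodies, and 5 of its 15 windows were at that level in both eluates with hMeDIP below it. The D stretch of Igh (12 windows) and the Tcrb and Igk ends (4 windows each) had no window at that level in both eluates or with both antibodies. So few windows cannot be told apart from the genome's shares of 13.4% and 7.41%.

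The single bin called in all 4 libraries, chr12:114565001-114566000, lay among the Igh constant genes. It had 35, 22, 38 and 65 reads in the 600 mM eluate, 800 mM eluate, MeDIP and hMeDIP against 5 input reads, for 5.01-, 4.47-, 5.39- and 5.22-fold. Other named bins of this end were higher in 1 kind of library. Among Igh bins with 5 or more input reads, chr12:114402001-114403000 was highest in the 800 mM eluate (27 reads, 4.68-fold), and chr12:114660001-114661000 followed the bin shared by all 4 libraries in the 600 mM eluate (25 reads, 3.76-fold). Bins with 3 input reads held more, with 35 reads at 800 mM in chr12:114403001-114404000 and 64 at 600 mM in chr12:114619001-114620000. The bin chr12:114548001-114549000 had 39 hMeDIP reads against 1 in MeDIP and none in the eluates, the largest hMeDIP excess over MeDIP among members with 20 or more reads in that pair.

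Within the Igh V array 1 bin stood out in both antibody libraries. The bin chr12:116852001-116853000 had 212 MeDIP reads (12.4-fold) and 307 hMeDIP reads (10.2-fold), beside 46 reads at 600 mM (2.92 times) and 35 at 800 mM (3.08 times). Its 22 input reads compare with a median of 5 per member bin of that stretch, so it was rich in reads before enrichment as well. Another pair of Igh bins separated the antibodies. The bin chr12:115788001-115789000 had 28 hMeDIP reads and none in MeDIP, and chr12:115252001-115253000 had 39 MeDIP reads and 7 in hMeDIP, with 3 and 2 input reads.

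At Tcra/d the named bins of the V array and the 5' margin were picked as highest in an eluate or in MeDIP. Their hMeDIP ratios ran from 0.707 to 2.62, each below the ratio in the library that picked the bin. That choice itself favours a lower hMeDIP value. The bin chr14:53070001-53071000 in the V array had 37, 19, 34 and 8 reads in the 600 mM eluate, 800 mM eluate, MeDIP and hMeDIP against 10 input reads, and its hMeDIP level was 0.248 of that in MeDIP. In the margin, chr14:52919001-52920000 had 27, 32, 27 and 18 reads. Among bins with 5 or more input reads, the highest in MeDIP were also in the margin, chr14:52995001-52996000 with 33 reads (4.77-fold) and chr14:52969001-52970000 with 29 (4.27-fold). The highest such bins in hMeDIP lay in the D-J-C end, chr14:54770001-54771000, with 46 reads against 2 in each eluate, and chr14:54784001-54785000, with 39 reads in hMeDIP, 2 in MeDIP, 21 at 600 mM and 18 at 800 mM.

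Among members with 20 or more reads in both eluates together, the largest differences between the eluates lay in the same Tcra/d margin. The bin chr14:52931001-52932000 had 77 reads at 800 mM and 7 at 600 mM, a ratio of 9.20 with 0.5 RPM added, and chr14:52915001-52916000 had 46 and 1, a ratio of 11.1. MeDIP had 3 and 1 reads in these bins and hMeDIP 8 and 5, so the 800 mM signal had no counterpart in another library. Whether these reads are repeated copies of few fragments was not tested. Across all members 3 bins were 3-fold or more higher at 800 mM than at 600 mM (0.0408%, against 0.224% of the genome) and 4 were higher at 600 mM (0.0544% against 0.11%).

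At Tcrb named bins were modest. The bin chr6:40890001-40891000 near the upstream trypsinogen genes had 21, 28, 15 and 2 reads in the 600 mM eluate, 800 mM eluate, MeDIP and hMeDIP against 7 input reads. The bin chr6:41477001-41478000, at the start of the D-J-C end, had 45 hMeDIP reads (3.82-fold) and 14 in MeDIP against 5 in input, with none in either eluate. In the downstream trypsinogen stretch, chr6:41447001-41448000 had 43 hMeDIP reads (3.68-fold), 6 in MeDIP, 3 at 600 mM and none at 800 mM. The last pair was thus high in hMeDIP with 3 or fewer reads in each eluate, whereas the first had more reads in each eluate than in hMeDIP. A bin of the V array, chr6:41209001-41210000, had 14 reads at 800 mM and 5 at 600 mM, and chr6:40845001-40846000 had 11 at 600 mM.

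Compared directly, hMeDIP stood at 1.10 times MeDIP over the variable stretches (1.08 to 1.13), against 1.05 (1.03 to 1.06) over the flanks and 0.979 (0.936 to 1.03) over the D-J-C ends. The hMeDIP over MeDIP ratio in the variable stretches was 1.12 at Igh, 1.07 at Igk, 1.18 at Tcra/d and 1.05 at Tcrb, where the interval (0.938 to 1.17) included 1. Relative to its own flanks the ratio was higher only at Igh (1.29, interval 1.23 to 1.36), where the flanks themselves stood at 0.864. At Igk it was lower than in the flanks (0.929, interval 0.890 to 0.970), and at Tcra/d and Tcrb the intervals included 1. Of the 652 variable 10 kb windows, 101 had hMeDIP at 1.5-fold or more over MeDIP (15.5%, against 14.6% of the genome), and 49 had the reverse (7.52% against 12.4%). The share with hMeDIP above MeDIP was thus near the background, and the share with MeDIP above hMeDIP was below it.

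The 800 mM eluate stood at 0.944 of the 600 mM eluate over the variable stretches (0.909 to 0.979) and at 1.03 over the flanks (1.01 to 1.04). With each library's genome-wide median ratio set to 1 the variable value became 1.01, so its side of 1 depends on the scaling. The 600 mM eluate was at 0.654 of MeDIP over the variable stretches (0.635 to 0.674), 0.970 over the D-J-C ends (0.921 to 1.02) and 1.05 over the flanks (1.04 to 1.07). In the variable stretches the ratio was 0.498 at Tcrb, 0.514 at Igh, 0.723 at Igk and 0.741 at Tcra/d. Ratios below 1 were not limited to the V arrays. For values near 1 the side depends on the scaling here too. The genome's median autosomal 100 kb window lay at 0.762 of input in the 600 mM eluate and at 0.863 in MeDIP. At Tcrb the D-J-C end stood at 0.605 (0.450 to 0.809), the trypsinogen stretches at 0.636 (0.551 to 0.735) and the flanks at 0.765 (0.737 to 0.794). The Igh D-J-C end was at 0.866 (0.808 to 0.929) and the Igk flanks were at 0.912 (0.885 to 0.940), while the Tcra/d D-J-C end was at 1.24 (1.13 to 1.35).

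The share of reads with a 1 in column 4 of the files, a flag of 0 or 1 of unknown meaning, differed between the loci. The flag was 1 for 21.7% of input reads, 34.9% of 600 mM reads and 38.2% of 800 mM reads in the Igh variable stretch, against 8.35% of input reads genome-wide. In the Tcra/d variable stretch it was 14.0%, 23.1% and 23.6%, with 13.3% to 13.8% of input reads in its flanks as well. At Igk and Tcrb it was 5.91% and 5.74% of input. The flag was 0 in all antibody reads. Leaving reads with a 1 out gave variable to flank ratios of 0.269, 0.246, 0.469 and 0.496 in the order used above. For MeDIP and hMeDIP this took out input reads only. E14 cells are not of the C57BL/6 strain from which mm9 was assembled, and V arrays differ between strains. Input reads per member bin of the variable stretches had a median of 5 at Igh, Igk and Tcra/d and 7 at Tcrb. The part of strain in the values was not tested.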

How the data were processed

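The deposited files list 1 aligned 35 bp read per line, with a read count of 1, as deposited by the authors; the submitters' processing notes name BWA 0.5.8 and mm9. Other steps are not given in the sources used here. The 4 enriched libraries and the input were assigned to groups from the labels. Each read went to the 1 kb bin of its midpoint, on chromosomes 1 to 19 and X only, and counts were scaled to RPM by the reads on these chromosomes. Reads at the same position were all kept, so high counts in single bins may include repeated copies of a fragment, which was not tested. Stretch folds are ratios of summed reads over member bins. Single-bin ratios and the counts of low 10 kb windows add 0.5 RPM to both sides, whereas folds printed for 10, 50 and 100 kb windows add none. Intervals are exact (Clopper-Pearson, or conditional for ratios of ratios) at 95%, from SciPy 1.17.1 with NumPy 2.4.6 and pandas 2.3.3, and cover counting error only, since reads carry no molecular identifiers.

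Borders between stretches are rounded mm9 positions from general knowledge, with no mm9 annotation used here. Segment counts and promoter sequences come from RefSeq on GRCm38.p6, used for names, order and sequence only.

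Members and lists were chosen with earlier results of these data known. Named regions are the 2 highest bins per locus and library with 5 or more input and 10 or more library reads, the highest and lowest 100 kb windows, and the 2 bins per direction with the largest hMeDIP to MeDIP and eluate differences. The scripts were tested on simulated data. With 1 library per group no p-value was computed.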

Additional observations from a re-analysis of the deposited data

How the results depend on the processing

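Values follow the order 600 mM eluate, 800 mM eluate, MeDIP, hMeDIP. In every alternative run, the variable stretches stayed below their flanks and the D-J-C ends above the variable stretches, in all 4 libraries. The variable to flank ratio became 0.269, 0.246, 0.469 and 0.496 without reads flagged 1 in column 4. For MeDIP and hMeDIP this removed input reads only, since no antibody read carried the flag. The ratio was 0.315, 0.274, 0.507 and 0.499 with 0.5 Mb flanks, and 0.268, 0.245, 0.436 and 0.463 with all libraries thinned to equal depth. In the eluates it was 0.250 and 0.230 with 5 or more input reads per bin, and 0.296 and 0.274 over all bins. The D-J-C to variable ratio became 4.73, 5.11, 2.69 and 2.32 with 5 or more input reads. It was 4.52 and 4.85 in the thinned eluates, and 4.00 (600 mM), 2.70 (MeDIP) and 2.40 (hMeDIP) with inner borders moved 10 kb toward the variable side. Leaving out each locus in turn gave variable to flank ranges of 0.222 to 0.438, 0.207 to 0.395, 0.408 to 0.590 and 0.451 to 0.562. The D-J-C to variable ranges were 3.66 to 4.81, 4.00 to 5.23, 2.33 to 3.03 and 1.98 to 2.80. hMeDIP over MeDIP in the variable stretches was 1.17 with 5 or more input reads and 1.08 to 1.13 with a locus left out.

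The count of members at 3-fold depended on the settings. It was 18, 27, 15 and 14 with 5 or more input reads, 98, 162, 74 and 56 with the genome median ratio set to 1 (5.85%, 7.73%, 3.75% and 3.03% of the genome's bins), and 220, 259, 241 and 239 with 0.1 RPM added (9.46%, 10.1%, 8.20% and 7.25% of the genome). With 1 RPM added it was 19, 29, 12 and 5 of the 7353 members (0.967%, 1.55%, 0.779% and 0.542% of the genome's bins). At 2-fold it was 169, 219, 170 and 172 (9.35%, 10.1%, 7.70% and 6.64% of the genome). At 5-fold it was 17, 17, 9 and 4 (0.572%, 0.866%, 0.460% and 0.296% of the genome). Genome shares were not computed with 5 or more input reads, with 2 kb bins or for low windows of 5 kb and 20 kb. With 2 kb bins hMeDIP called 20. Leaving out a locus gave 34 to 59, 46 to 75, 27 to 46 and 14 to 32; without Igh, hMeDIP called 14 and MeDIP 27, and without Igk the eluates called 34 and 46. Low windows of the whole loci (493, 507, 284 and 228) numbered 836, 868, 470 and 361 at 5 kb and 259, 264, 153 and 121 at 20 kb, where the number of windows itself changes. That median ratio was 0.757, 0.704, 0.834 and 0.839 of input (log2 -0.40, -0.51, -0.26 and -0.25), and setting it to 1 turned 800 mM over 600 mM in the variable stretches to 1.01, from 0.944; with a locus left out this was 0.936 to 0.952. With 5 or more input reads, 8 of the 80 stretch folds stayed within their intervals and 10 fell by more than 1.5 times, the most at the Igh D stretch in the 800 mM eluate (0.376 of the printed value); the 10 are the Igh D stretch in all 4 libraries and, in both eluates, the Igk variable stretch, the downstream trypsinogen stretch and the Tcrb D-J-C end. All 80 folds fell under this setting, which selects bins by the input count in the denominator. The Igk constant-side flank turned below input, to 0.906 (600 mM), 0.934 (MeDIP) and 0.992 (hMeDIP).

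Depth limits single bins: 5 input reads were typical, and a bin without a read allows up to 3 reads. No paired analysis was possible because each group has 1 library.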
